A study of Mus musculus with 15 samples.

Results

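The genes described here are 39 mouse genes known from macrophages, monocytes and dendritic cells, read in libraries made from sorted regulatory T cells (Tregs), a cell type that is not known for most of them. They were taken by name, and all 39 were found among the 45706 genes of the deposited count table. They fall into 7 groups by known role, namely 11 general macrophage and monocyte genes, 5 Fc receptor and adaptor genes, the 3 chains of complement C1q, 5 genes of red pulp macrophages, 5 genes of peritoneal macrophages, 3 genes for handling apoptotic cells and lipid, and 7 dendritic cell genes. A filter on low counts, applied to all genes together, was passed by 37 of the 39. Fcgr1 and Gata6 did not pass and are given as values without a test.

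The study sequenced RNA from Foxp3+ T cells sorted from adult C57BL/6 RelB-dDC mice and from their littermate controls, and both genotypes carried a Foxp3 reporter. The 15 libraries comprised 2 RelB-dDC (below, dDC) and 2 control libraries from the peritoneal cavity, 2 dDC and 3 control libraries from the thymus, and 3 dDC and 3 control libraries from the spleen. The labels do not spell out the name dDC. It is read here as loss of the transcription factor RelB in dendritic cells, and neither the promoter behind the deletion nor the number of mice per library is stated. Sorted Tregs are not the cells the line name points to, and Relb itself was read at 7.72 to 37.6 CPM (gene counts relative to library size) in all 15 libraries, so it does not check the genotype labels. Nothing in the labels says that replicate libraries came from separate animals, so the p-values measure the spread between these libraries, which may be technical.

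Macrophages are phagocytes that live in every organ and take on a tissue-specific gene programme. Red pulp macrophages of the spleen clear aged red blood cells and recycle their iron under the transcription factor Spi-C. Large peritoneal macrophages depend on GATA6. Dendritic cells take up antigen and present it to T cells, and Tregs meet all of these cells in their tissues. A bulk library does not show which cell a read came from, and in bulk RNA fewer cells of a type and less RNA per cell cannot be told apart.

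The libraries held 15714286 to 24332044 counts over genes. The Treg transcription factor Foxp3 was read at 179 to 327 CPM and the T cell receptor component Cd3e at 1285 to 2007 CPM, so all 15 libraries carried the T cell genes their labels call for. Counts were scaled to CPM with TMM factors, and levels of different genes are compared below only in TPM (the same scaling after division by gene length). The libraries were amplified by PCR with no molecular identifiers named in the labels, so counting intervals cover counting error only.

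Control library 2 of the peritoneal cavity stood apart from the other libraries in these genes. It held the highest value of all 15 libraries for 21 of the 39 genes, which is 53.8% of them, whereas it was the highest library for 13% of the 18423 genes tested. The other peritoneal control library was low in the same genes, with 0 counts for all 3 C1q chains, Cd14 and Alox15. The summed level of 8 T cell and Treg genes was 4748 CPM in peritoneal control 2, the lowest of the 15 libraries. It was 5473 CPM in the other peritoneal control, 5893 and 6643 CPM in the peritoneal dDC libraries and up to 7397 CPM in the other tissues. Results that rest on that library are given with and without it.

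**Figure D1:**
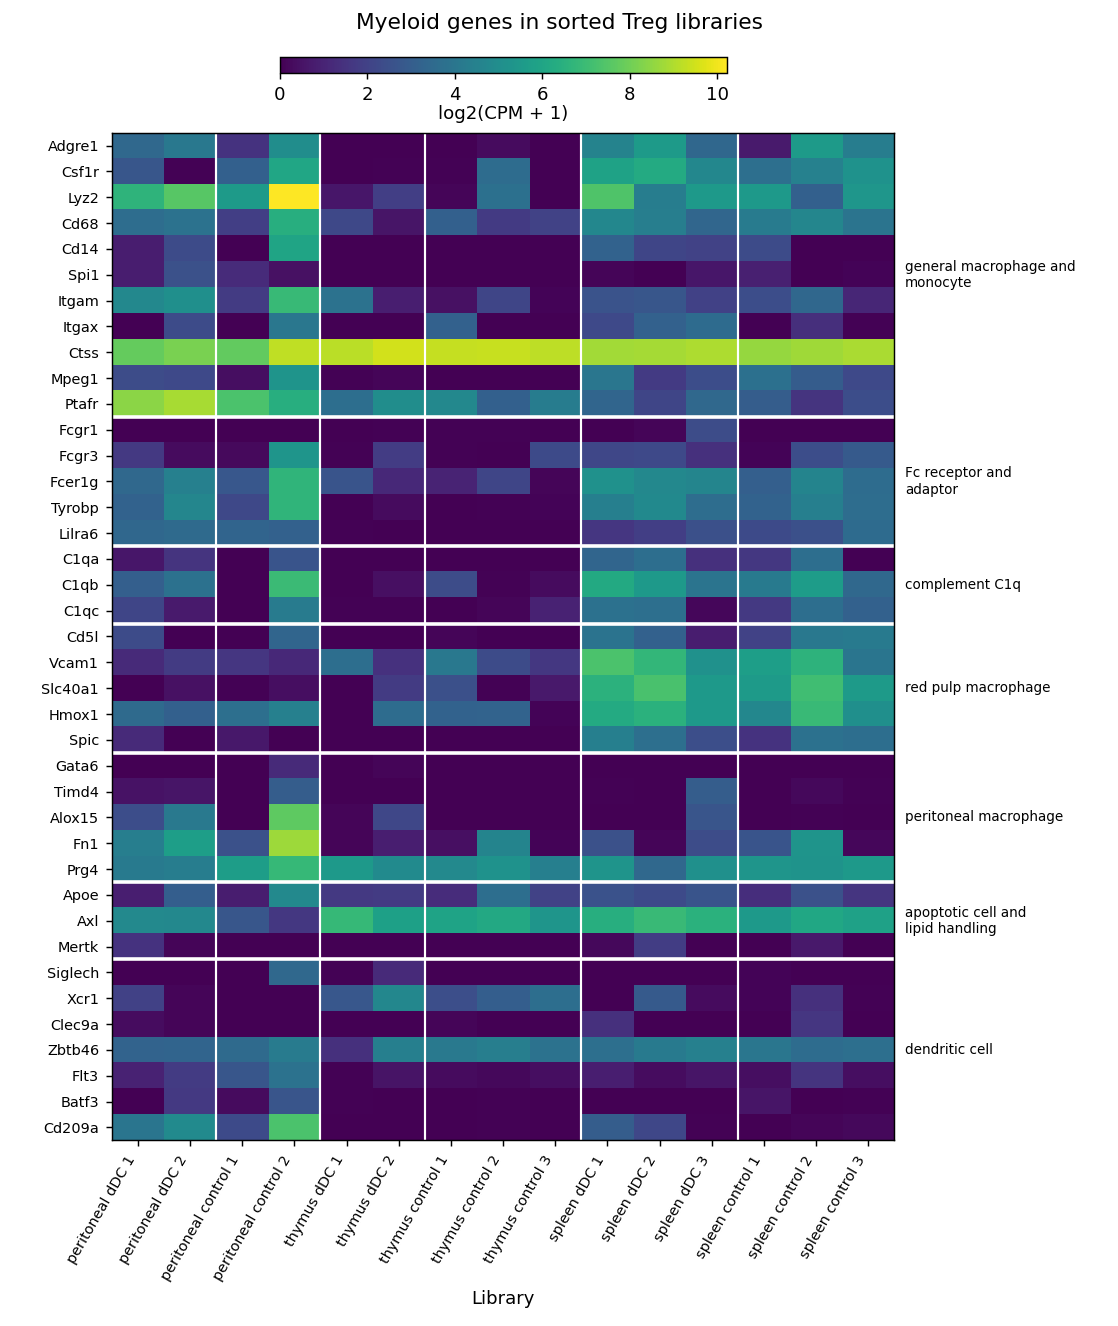
Level of each of the 39 genes (rows, grouped by role) in each of the 15 libraries (columns), as log2(CPM + 1), where darker is lower. Peritoneal control 2 is bright in most rows, thymus libraries are dark except for Ctss, Prg4, Axl, Zbtb46, Ptafr and Xcr1, and the red pulp rows are bright in the 6 spleen libraries.

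Across tissues, most of these genes were lowest in thymus. Between thymus and spleen, 0 of the 37 genes tested were higher in thymus and 6 were lower, where 0.418% of all tested genes were called higher and 0.901% lower (1.32% either way; edgeR quasi-likelihood test, adjusted p under 0.05). The fitted difference was negative for 33 of 37, with a median log2 of -3.93, or -2.63 when genes with an empty group were set at their detection bound, and the median over all genes tested was -0.03 (-0.01 with the same bound). Between peritoneal cavity and thymus, 9 genes were higher in the peritoneal cavity and 2 lower, beside 3.03% and 2.58% of all tested genes (5.61% either way). The median log2 was 4.85, or 3.57 with empty groups at their bound, against 0.00 over all genes by either reckoning. That median was 2.08 without peritoneal control 2, with 24 of 37 positive in place of 31. Between peritoneal cavity and spleen, 2 genes were higher and 3 lower, beside 1.23% and 1.66% of all genes (2.89% either way), and the median log2 was 0.31, against -0.03 over all genes, with 21 of 37 positive. Without peritoneal control 2 the median turned to -2.30, with 10 positive and 27 negative. Each tissue difference is the mean of the dDC and the control difference. The libraries of the 2 tissues did not overlap for 13 of the 37 genes between thymus and spleen (2.99% of all genes tested), 12 between peritoneal cavity and thymus (8.38%) and 6 between peritoneal cavity and spleen (5.06%). DESeq2 called more genes at large than edgeR in each of these comparisons, so the shares above do not apply to it. Its totals over all genes are given in the section on processing. Of these genes it called 1 higher and 18 lower between thymus and spleen. It called 19 higher and 4 lower between peritoneal cavity and thymus, and 4 higher and 4 lower between peritoneal cavity and spleen.

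**Figure D2:**
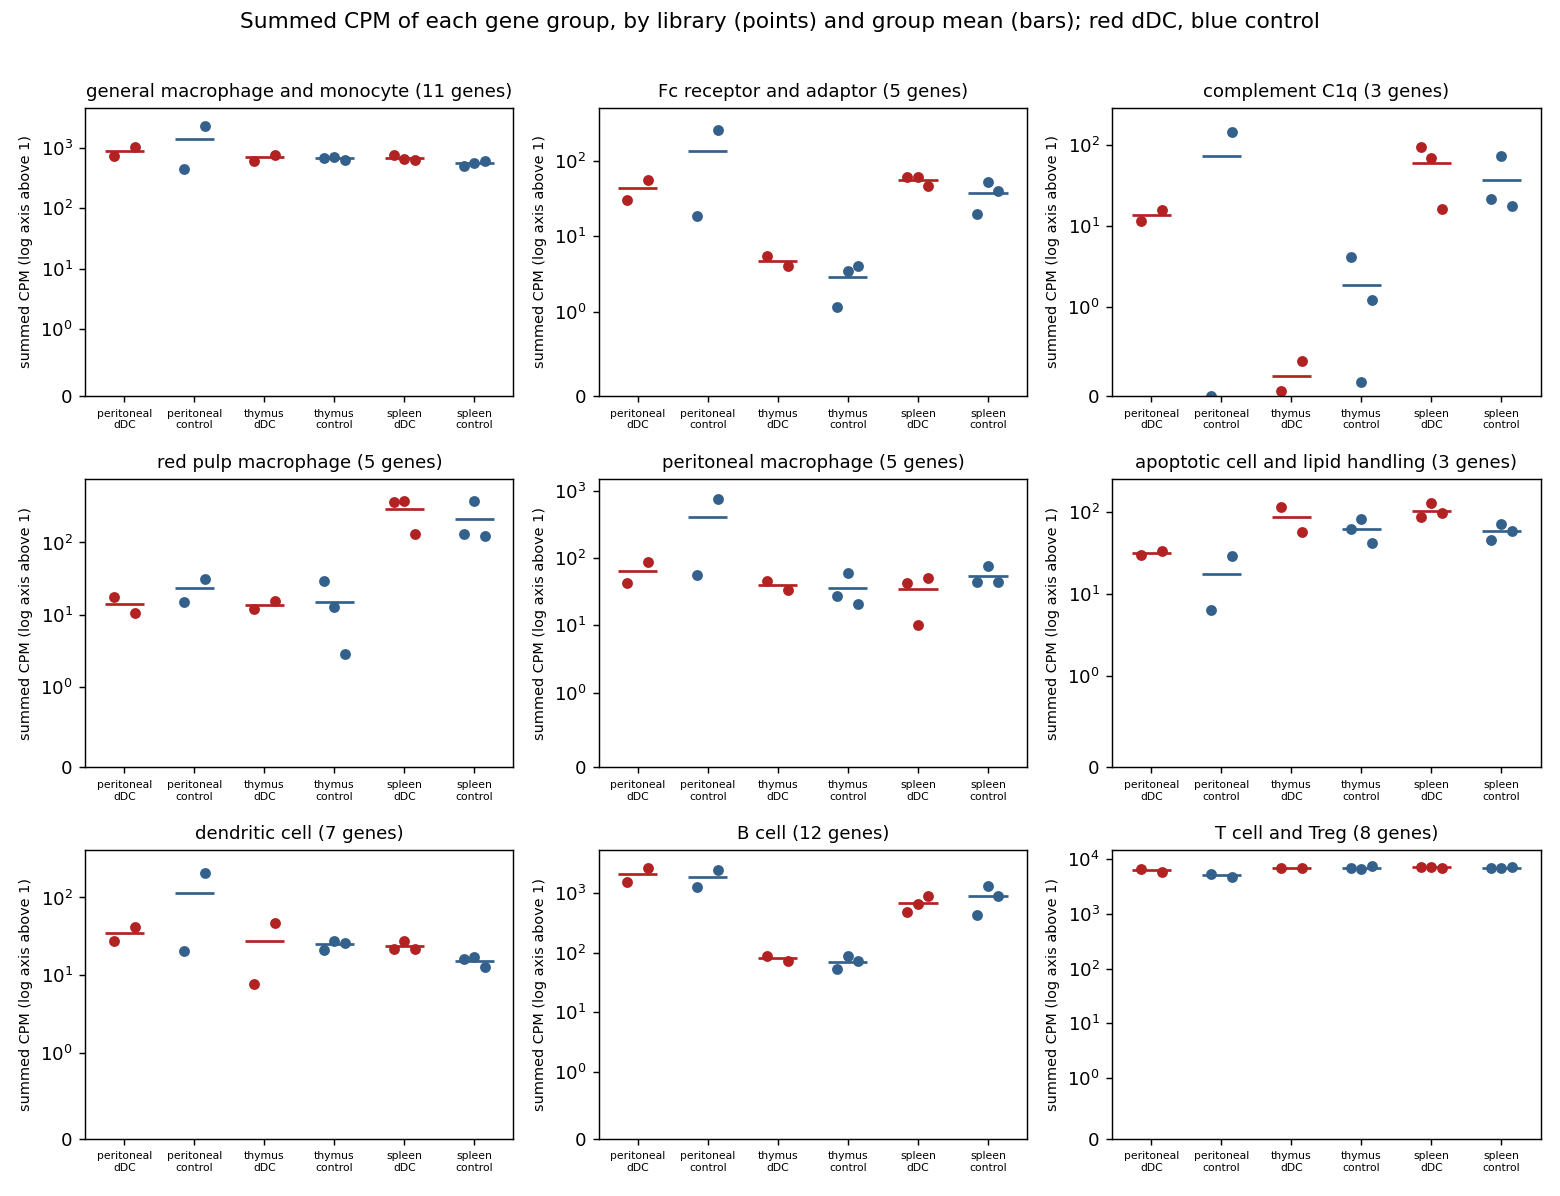
Summed CPM of each gene group in each library (points) with group means (bars), dDC in red and control in blue, on an axis that is logarithmic above 1 CPM, with B cell genes and T cell and Treg genes as comparison panels. The Fc receptor and B cell sums are lowest in thymus, the red pulp sum is highest in the 6 spleen libraries, and the general macrophage sum is nearly level in thymus and spleen, where Ctss makes up most of it.

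Among the general macrophage and monocyte genes, Lyz2 encodes the lysozyme of macrophages and granulocytes. Its level was 98.7 and 190 CPM in peritoneal dDC libraries, against 46.2 and 1187 CPM in peritoneal controls. In thymus it was 0.548 and 2.70 CPM in dDC libraries, against 0.110, 12.7 and 0 CPM in controls. In spleen it was 169, 19.1 and 45.1 CPM in dDC libraries, against 43.7, 7.84 and 39.9 CPM in controls. The 4 peritoneal libraries lay above all 5 thymus libraries, and within each tissue the genotypes overlapped. Lyz2 was higher in peritoneal cavity than in thymus (log2 6.81 ± 1.51 SE, adjusted p = 0.0205, edgeR), while its difference between thymus and spleen was not called. The call was lost without peritoneal control 2 (log2 4.95, adjusted p = 0.0841), peritoneal dDC 2 (0.0510), thymus dDC 1 (0.143) or thymus dDC 2 (0.0817), with a test on the control libraries alone (0.0741), under limma voom (0.295) and without the low-count filter (0.0805). Without thymus control 2, which held 232 of the thymus Lyz2 counts, the difference was log2 9.86 (adjusted p = 0.00387). Lyz2 has a close copy, Lyz1, so reads may have been shared between them.

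Adgre1, which encodes the macrophage surface protein F4/80, had 10.1 and 15.9 CPM in peritoneal dDC libraries and 1.81 and 31.6 CPM in peritoneal controls. Thymus held 4 Adgre1 counts in all, all of them in control library 2. Spleen had 22.7, 46.8 and 9.57 CPM in dDC libraries and 0.685, 45.8 and 19.1 CPM in controls. Adgre1 was thus detected in every peritoneal and spleen library and in 1 of 5 thymus libraries. It was higher in peritoneal cavity than in thymus (mean 14.9 ± 12.6 CPM in 4 peritoneal libraries and 0.0436 ± 0.0975 CPM in 5 thymus libraries, SD, edgeR adjusted p = 0.0108), and lower in thymus than in spleen (spleen mean 24.1 ± 18.8 CPM, SD, n = 6, edgeR adjusted p = 0.0211). Because the thymus dDC group was empty, the fitted fold change of Adgre1 depends on the small count added in fitting and is not given. The spleen call was lost without thymus dDC 1 (adjusted p = 0.137) or thymus dDC 2 (0.0759), and the peritoneal call without thymus dDC 1 (0.0633). With control libraries alone both were lost (0.110 for spleen and 0.0661 for peritoneal cavity), as they were under limma voom (0.102 and 0.0817). Without peritoneal control 2 the peritoneal mean of Adgre1 was 9.28 ± 7.10 CPM (SD, n = 3).

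Mpeg1, which encodes the pore-forming protein perforin-2 of phagocytes, was distributed in a similar way. Peritoneal libraries had 4.12 and 3.83 CPM in dDC and 0.293 and 38.5 CPM in control, thymus held 3 counts over 5 libraries, and spleen had 14.9, 2.34 and 4.27 CPM in dDC and 12.7, 6.94 and 3.83 CPM in control. The mean level was 320-fold higher in peritoneal cavity than in thymus (95% counting interval 109 to 1550, edgeR adjusted p = 0.0108) and 222-fold lower in thymus than in spleen (75.9 to 1080, edgeR adjusted p = 0.0305). Without peritoneal control 2 the peritoneal level was 82.7-fold higher than in thymus (28.3 to 401). The peritoneal call was lost without thymus dDC 1 (0.0797) or thymus dDC 2 (0.0556) and under limma voom (0.0656). The spleen call was lost without any 1 of 8 libraries: spleen dDC 1 (0.0535), spleen dDC 3 (0.0535), spleen controls 1 (0.0568) and 2 (0.0560), thymus dDC 1 (0.213) and 2 (0.108), and peritoneal dDC 1 (0.0510) and 2 (0.0516). It was also lost with control libraries alone (0.0835) and under limma voom (0.0609).

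The remaining genes of that group, apart from Ctss and Ptafr, did not pass the test in any tissue comparison. Csf1r, the receptor for the macrophage growth factor M-CSF, ranged over 0.0556 to 64.6 CPM in peritoneal cavity, 0 to 11.2 CPM in thymus and 12.4 to 74.3 CPM in spleen. It overlaps Hmgxb3 on the other strand, and the library method does not mark strand, so its low values are uncertain. Cd68, a lysosomal membrane protein of phagocytes, ranged over 2.69 to 83.4 CPM in peritoneal cavity, 0.491 to 7.77 CPM in thymus and 9.23 to 25.7 CPM in spleen. Cd14, the co-receptor for lipopolysaccharide, was at 0 counts in all 5 thymus libraries and averaged 3.16 ± 3.10 CPM in spleen (SD, n = 6), which puts thymus at least 19.4-fold lower against a floor of 3 counts per library. Itgam and Itgax, neighbouring genes for the integrin chains CD11b and CD11c, reached 118 and 15.7 CPM in peritoneal control 2. Itgam was the more widespread of the pair, with a count in all 15 libraries, and Itgax was at 0 in 7 of them. Spi1, the gene of the myeloid master regulator PU.1, never exceeded 4.78 CPM and was at 0 in all thymus libraries.

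Ctss and Ptafr did not follow the others. Ctss, a lysosomal protease used for trimming the MHC class II invariant chain, had 220 and 288 CPM in peritoneal dDC libraries and 218 and 606 CPM in peritoneal controls. Thymus had 577 and 732 CPM in dDC and 630, 663 and 591 CPM in control libraries, and spleen had 447, 458 and 490 CPM in dDC and 390, 432 and 481 CPM in control. Per length, Ctss was the highest of the 39 genes in each tissue, with a median of 393 TPM in peritoneal cavity, 1031 TPM in thymus and 722 TPM in spleen. It was lower in peritoneal cavity than in thymus (log2 -0.99 ± 0.23 SE, adjusted p = 0.0270, edgeR). The groups overlapped only through peritoneal control 2. Ctss was lower in peritoneal cavity than in spleen by log2 -0.93 without that library, a difference not called with all libraries. That call was lost without any 1 of 6 libraries, peritoneal dDC 1 (adjusted p = 0.113) and 2 (0.0590), thymus dDC 1 (0.0508) and 2 (0.0819) and thymus controls 1 (0.0505) and 2 (0.0540), and with control libraries alone (0.410). All 5 thymus libraries exceeded all 6 spleen libraries in Ctss, but that difference did not pass (log2 0.51 ± 0.20 SE, edgeR adjusted p = 0.316), except when peritoneal control 1 (0.0287) or 2 (0.0290) was left out of the fit.

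Ptafr, the receptor for platelet-activating factor, was highest in the peritoneal cavity. Peritoneal dDC libraries had 342 and 468 CPM and peritoneal controls 159 and 84.6 CPM. Thymus dDC libraries had 11.9 and 30.8 CPM and thymus controls 26.2, 7.74 and 18.6 CPM, and spleen dDC libraries had 8.98, 3.34 and 9.90 CPM and spleen controls 7.08, 1.92 and 4.38 CPM. All 4 peritoneal libraries lay above the other 11. Ptafr was higher in peritoneal cavity than in spleen (log2 5.27 ± 0.49 SE, 38.6-fold, adjusted p = 0.000153) and than in thymus (log2 3.52 ± 0.51 SE, 11.5-fold, adjusted p = 0.00168, both edgeR), and both calls were kept when each of the 15 libraries was left out in turn. With control libraries alone the difference from thymus was log2 2.80 (adjusted p = 0.0416). Its lowest peritoneal value was in control library 2, which held the highest value for 21 of the genes. By median TPM in peritoneal cavity Ptafr (150) came after Ctss and Lyz2 (238).

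The Fc receptor and adaptor genes serve antibody-triggered uptake and signalling. Tyrobp, which encodes the ITAM adaptor DAP12, had 8.29 and 24.4 CPM in peritoneal dDC and 3.62 and 101 CPM in peritoneal control libraries. Thymus held 7 Tyrobp counts over 5 libraries. Spleen had 20.04, 28 and 11.5 CPM in dDC and 8.33, 19.97 and 11.6 CPM in control libraries. All peritoneal and spleen libraries exceeded all thymus libraries. Tyrobp was higher in peritoneal cavity than in thymus (log2 8.58 ± 1.17 SE, adjusted p = 0.00121) and lower in thymus than in spleen (log2 -7.74 ± 1.12 SE, adjusted p = 0.00473, both edgeR). Both calls were kept without each of the 15 libraries in turn, though the spleen one was lost under limma voom (0.0843). The peritoneal difference without peritoneal control 2 was log2 6.66 (adjusted p = 0.00165). Thymus dDC 2 held 5 of the 7 thymus counts and the other thymus dDC library 0, so the fitted values without it are not given.

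Lilra6, a paired immunoglobulin-like receptor gene that signals through the Fc receptor gamma chain, was read in every peritoneal and spleen library. It had 9.58 and 10.5 CPM in peritoneal dDC libraries, 8.76 and 8.11 CPM in peritoneal controls, 2.08, 2.74 and 4.71 CPM in spleen dDC libraries and 3.94, 4.57 and 10.9 CPM in spleen controls. Thymus held 1 count in 5 libraries. The mean level was 858-fold higher in peritoneal cavity than in thymus (95% counting interval 154 to 33900, edgeR adjusted p = 0.000330) and 470-fold lower in thymus than in spleen (84.3 to 18500, edgeR adjusted p = 0.00167), both kept without each library in turn. Lilra6 belongs to a family of near-identical Pira genes, so its reads may be split among copies. Peritoneal control 2 did not stand out in Lilra6, at 8.11 CPM.

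Fcer1g, which encodes the shared Fc receptor gamma chain, had 9.84 and 20.9 CPM in peritoneal dDC and 5.87 and 102 CPM in peritoneal control libraries. Thymus had 5.37 and 1.28 CPM in dDC and 1.04, 3.38 and 0.115 CPM in control, and spleen had 34.7, 26.3 and 24.4 CPM in dDC and 7.53, 23.2 and 11.1 CPM in control. It was higher in peritoneal cavity than in thymus (log2 3.68 ± 0.93 SE, adjusted p = 0.0388, edgeR), with no overlap between the tissues' libraries. The call was lost in 10 of the 15 fits with a library left out, most of all without peritoneal control 2 (log2 2.08, adjusted p = 0.238), thymus dDC 2 (0.138), peritoneal dDC 2 (0.115) and thymus dDC 1 (0.101). It was also lost without thymus control 1 (0.0763), peritoneal dDC 1 (0.0618), spleen dDC 1 (0.0562), 2 (0.0574) or 3 (0.0558), or spleen control 3 (0.0515), with control libraries alone (0.0572) and under limma voom (0.165). Without thymus control 2 or thymus dDC 1 the difference was log2 4.37 in either case. The receptors themselves were low. Fcgr3, the low-affinity IgG receptor III, ranged over 0.196 to 39.1 CPM in peritoneal cavity, 0 to 3.85 CPM in thymus and 0.0571 to 6.48 CPM in spleen, and did not pass. Fcgr1, the high-affinity IgG receptor I, was read in 5 libraries, with 87 counts in spleen dDC 3 (4.22 CPM) and at most 2 counts in any other.

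The C1q chains form the recognition molecule of the classical complement pathway, and macrophages are its main source. The 3 genes lie side by side on chromosome 4 (mm10, C1qb at chr4:136880129-136886187, C1qc at chr4:136889804-136893065 and C1qa at chr4:136895917-136898803, all on the minus strand). C1qb had 7.47 and 13.1 CPM in peritoneal dDC and 0 and 122 CPM in peritoneal control libraries. Thymus had 0 and 0.344 CPM in dDC and 4.16, 0.0545 and 0.230 CPM in control, and spleen had 73.2, 44.1 and 14.2 CPM in dDC and 17.01, 48.9 and 9.80 CPM in control. All 6 spleen libraries exceeded all 5 thymus libraries. C1qa was at 0 in every thymus library and averaged 6.14 ± 5.48 CPM in spleen (SD, n = 6), which puts thymus at least 37.8-fold lower, although it was also at 0 in spleen control 3. None of the 3 chains passed in any comparison. For C1qb the thymus and spleen difference was called once peritoneal control 1 (edgeR adjusted p = 0.0320) or 2 (0.0397) was left out.

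The C1q protein takes its chains in equal numbers, but the reads were unequal. C1qb held 64.4% to 88.5% of the C1q counts in the 3 spleen dDC libraries, 55.1% to 79.3% in the 3 spleen controls, 65.9% and 83.7% in the peritoneal dDC libraries and 84.1% in peritoneal control 2. Corrected for length, C1qb still made up 69.3% to 88.4% of the summed C1q TPM in spleen dDC and 68.5% to 82.7% in spleen control libraries. In thymus the total ran from 1 to 76 counts, too few for a share to mean much. Spleen control 3 had 233 C1qb and 190 C1qc counts with 0 C1qa counts, and spleen dDC 3 had 293 C1qb counts with 3 C1qc counts, so single chains were missing from libraries that held the others.

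Red pulp macrophage genes, taken as a sum, were higher in every spleen library than in any other. Their summed level was 10.6 and 17.4 CPM in the peritoneal dDC libraries and 15.0 and 31.4 CPM in peritoneal controls, 11.9 and 15.5 CPM in thymus dDC and 2.87 to 29.1 CPM in thymus control libraries, against 131 to 371 CPM in spleen dDC and 122 to 380 CPM in spleen control libraries. Slc40a1, the iron exporter ferroportin, had 0 and 0.389 CPM in peritoneal dDC and 0.0489 and 0.317 CPM in peritoneal control libraries. Thymus had 0 and 2.45 CPM in dDC and 4.65, 0.0545 and 0.632 CPM in control, and spleen had 93.9, 154 and 44.4 CPM in dDC and 46.7, 135 and 46.2 CPM in control. The lowest spleen library was 44.4 CPM and the highest library elsewhere was 4.65 CPM.

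Slc40a1 was lower in peritoneal cavity than in spleen (log2 -8.85 ± 1.46 SE, adjusted p = 0.00634, edgeR), a call lost without peritoneal dDC 1 (0.0502) and with control libraries alone (0.0912). That difference was log2 -9.69 without peritoneal control 2 (adjusted p = 0.0430). It was also lower in thymus than in spleen (log2 -5.85 ± 1.15 SE, adjusted p = 0.0301, edgeR), a call lost without thymus dDC 1 (0.138), thymus control 3 (0.0567), spleen dDC 1 (0.0608), spleen dDC 2 (0.0723) or spleen control 2 (0.0650), with control libraries alone (0.148), under limma voom (0.0502) and without the low-count filter (0.0820). Without thymus control 1, the highest thymus library for Slc40a1, the difference was log2 -7.03 (adjusted p = 0.0117). Vcam1, the adhesion molecule that binds integrin VLA-4, had 1.34 and 2.39 CPM in peritoneal dDC and 2.10 and 1.27 CPM in peritoneal control libraries, against 158, 106 and 35.2 CPM in spleen dDC and 51.9, 97 and 14.7 CPM in spleen control libraries. It was lower in peritoneal cavity than in spleen (log2 -5.37 ± 0.91 SE, adjusted p = 0.00735, edgeR), lost without peritoneal dDC 1 (0.0614), peritoneal dDC 2 (0.0582) or peritoneal control 2 (0.0624), with control libraries alone (0.122) and under limma voom (0.131). Thymus was in between for Vcam1, at 11.9 and 1.77 CPM in dDC and 16, 4.09 and 2.18 CPM in control libraries.

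Spic, the gene of Spi-C itself, was at 0 in all 5 thymus libraries and had 20.04, 12.4 and 4.47 CPM in spleen dDC and 1.83, 13 and 11.8 CPM in spleen control libraries. Thymus was at least 65.2-fold lower than spleen (edgeR adjusted p = 0.0482), but the call was lost when any 1 of the 11 spleen and thymus libraries was left out, with an adjusted p between 0.0594 (thymus control 2) and 0.208 (thymus dDC 1), and with control libraries alone (0.160). Peritoneal libraries had 1.34 and 0 CPM in dDC and 0.587 and 0 CPM in control. Hmox1, the heme oxygenase that opens the heme ring, was highest in spleen (25.7 to 120 CPM) without passing, and had 7.78 to 20.6 CPM in peritoneal cavity and 0 to 11.3 CPM in thymus. Cd5l, a secreted scavenger protein of tissue macrophages, held 2 counts in thymus and 0.777 to 17.1 CPM in spleen, so its mean was 461-fold lower in thymus (95% counting interval 128 to 3810), and did not pass.

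Genes of red blood cell precursors moved with the red pulp group. The summed level of 7 erythroid genes was 1.13 to 392 CPM in peritoneal cavity, 0.884 to 399 CPM in thymus and 2396 to 7999 CPM in spleen, and 5 of the genes were called lower in thymus than in spleen, including the globin genes Hba-a2, Hbb-bt and Hba-a1. The part of red blood cells or their RNA in the red pulp result was not tested.

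**Figure D3:**
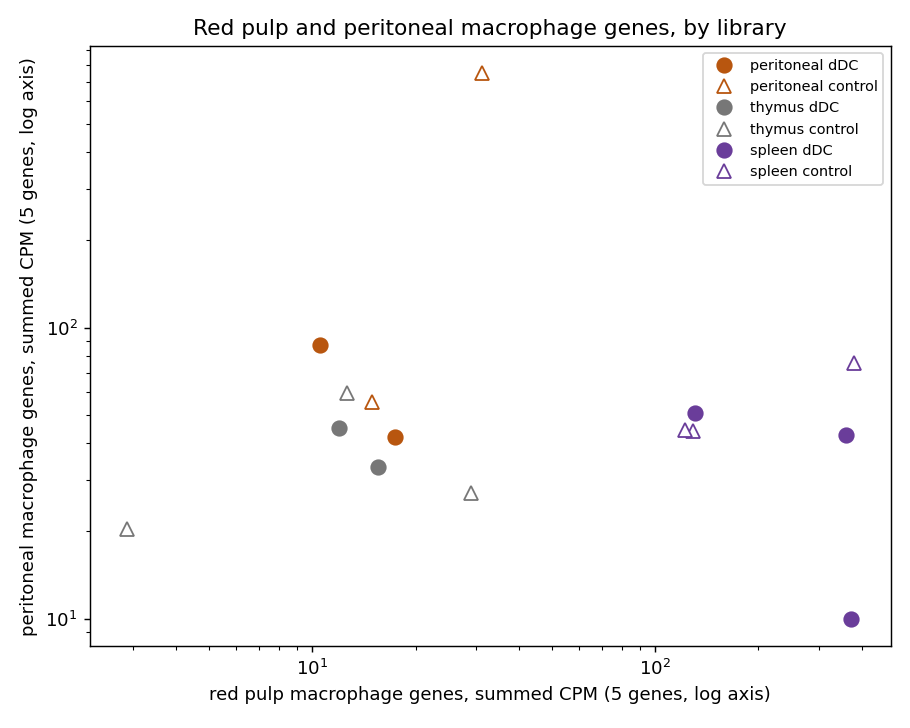
Summed CPM of the 5 red pulp macrophage genes (x) against that of the 5 peritoneal macrophage genes (y) in each library, both axes logarithmic, filled circles for dDC and open triangles for control. The 6 spleen libraries lie at 122 to 380 CPM on the x axis, the other 9 at 31.4 CPM or less, and peritoneal control 2 alone lies at 747 CPM on the y axis.

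The peritoneal macrophage genes were not shared evenly by the peritoneal libraries. Gata6, the gene of their defining transcription factor, was at 0 in both peritoneal dDC libraries and in peritoneal control 1, and had 21 counts (1.33 CPM) in peritoneal control 2. Only 1 other library, thymus dDC 2, held any, with 2 counts. Alox15, a lipoxygenase of resident peritoneal macrophages, had 4.27 and 16.4 CPM in peritoneal dDC and 0 and 207 CPM in peritoneal control libraries, at most 3.53 CPM in thymus and at most 5.54 CPM in spleen. Fn1, fibronectin, had 19.6 and 51.3 CPM in peritoneal dDC and 4.79 and 418 CPM in peritoneal control libraries, with up to 23.5 CPM in thymus and 38.1 CPM in spleen. Timd4, a receptor for phosphatidylserine on dying cells, reached 7.09 CPM in peritoneal control 2 and the same 7.09 CPM in spleen dDC 3. None of these passed in any tissue comparison with all libraries. When peritoneal control 1, the low library, was left out, peritoneal control 2 was the only peritoneal control. In that fit Alox15 was higher in peritoneal cavity than in spleen and than in thymus. Thymus controls held 0 Alox15 counts and spleen controls 1, so the fitted fold changes are not given.

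Prg4, lubricin, was read in every library at 9.87 to 114 CPM and is uncertain as a macrophage signal here. It overlaps Tpr, a nuclear pore gene on the other strand that was read at 239 to 406 CPM, and the reads carry no strand. Its 17.7 and 19.1 CPM in peritoneal dDC libraries lay below the 50.5 and 114 CPM of peritoneal controls (log2 -2.16 ± 0.57 SE, edgeR adjusted p = 0.424), and DESeq2 called it lower (0.0134).

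Of the genes that handle apoptotic cells and lipid, Axl, a receptor kinase that recognises dying cells through the bridging protein Gas6, was widely expressed. It had 27.4 and 26.2 CPM in peritoneal dDC and 5.67 and 2.15 CPM in peritoneal control libraries. Thymus had 114 and 54.7 CPM in dDC and 60.6, 71.2 and 39 CPM in control, and spleen had 83.5, 121 and 92.0 CPM in dDC and 44.6, 66.6 and 56.6 CPM in control. All 4 peritoneal libraries lay below the other 11. Axl was lower in peritoneal cavity than in spleen (log2 -2.85 ± 0.33 SE, adjusted p = 0.000677) and than in thymus (log2 -2.75 ± 0.33 SE, adjusted p = 0.000494, both edgeR), kept without each library in turn. Control libraries alone gave log2 -3.82 against spleen (adjusted p = 0.00420) and -3.85 against thymus (0.00145). Apoe, the lipid carrier apolipoprotein E, had 0.824 and 7.39 CPM in peritoneal dDC and 0.783 and 27.2 CPM in peritoneal control libraries, and 1.48 to 12.0 CPM in the other 11. Mertk, a sister receptor of Axl, was read in 5 libraries at 2.64 CPM or less and not in thymus.

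**Figure D4:**
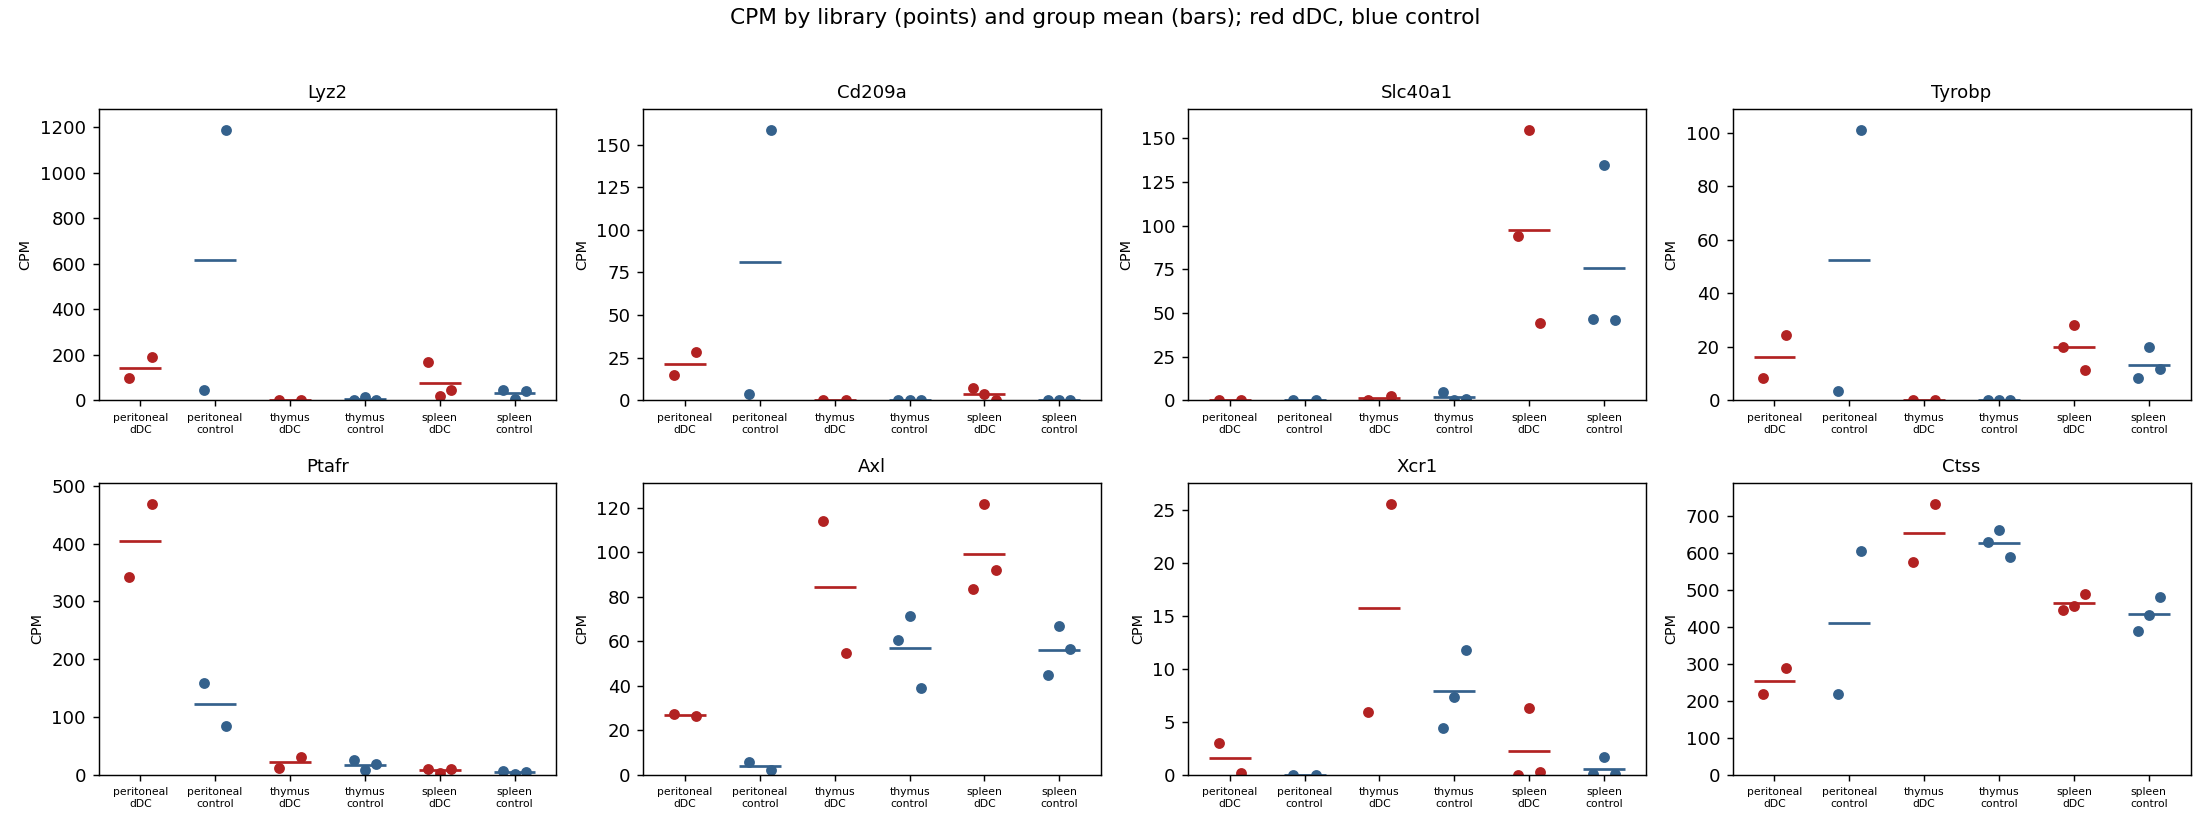
CPM of 8 of the genes in each library (points) with group means (bars), dDC in red and control in blue, each panel on its own linear axis from 0. Lyz2, Cd209a and Tyrobp are highest in peritoneal control 2, Slc40a1 is a spleen gene, Ptafr a peritoneal one, Axl is low in the peritoneal cavity, and Xcr1 and Ctss are highest in thymus.

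Dendritic cell genes split several ways. Cd209a, a C-type lectin of monocyte-derived dendritic cells in mouse, had 14.8 and 28.3 CPM in peritoneal dDC and 3.87 and 158 CPM in peritoneal control libraries. Thymus held 1 count, and spleen had 7.11, 3.49 and 0.0486 CPM in dDC and 0, 0.113 and 0.168 CPM in control libraries. Cd209a was higher in peritoneal cavity than in thymus, 4250-fold by the means (95% counting interval 762 to 168000, edgeR adjusted p = 0.00502), kept without each library in turn and lost under limma voom (0.0580). Without peritoneal control 2 it was 1400-fold higher (251 to 55300). It was also higher than in spleen (log2 6.10 ± 1.21 SE, adjusted p = 0.0219, edgeR), a call lost without peritoneal control 2 (log2 3.92, 0.180), peritoneal dDC 2 (0.0689), spleen dDC 2 (0.0688) or spleen controls 1 (0.0638), 2 (0.0653) or 3 (0.0585), with control libraries alone (0.0587) and under limma voom (0.138). It belongs to a family of related lectin genes.

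Flt3, the receptor for the cytokine that sustains dendritic cell development, had 0.978 and 2.39 CPM in peritoneal dDC and 5.72 and 13.4 CPM in peritoneal control libraries, and 0.0548 to 0.442 CPM in thymus. It was higher in peritoneal cavity than in thymus (log2 4.05 ± 0.94 SE, adjusted p = 0.0248, edgeR), with no overlap, and the call was lost without thymus dDC 1 (0.135), peritoneal control 2 (0.0947), peritoneal dDC 2 (0.0858) or thymus control 2 (0.0511), and without the low-count filter (0.0722). Without thymus dDC 2, the highest thymus library for Flt3, the difference was log2 5.08 (adjusted p = 0.0439), and with control libraries alone log2 5.38 (0.0447). Spleen lay at 0.249 to 1.86 CPM.

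Xcr1, the chemokine receptor of cross-presenting dendritic cells, ran the other way. It had 2.99 and 0.111 CPM in peritoneal dDC and 0 in both peritoneal control libraries, 5.92 and 25.5 CPM in thymus dDC and 4.43, 7.36 and 11.8 CPM in thymus control libraries, and 0, 6.33 and 0.243 CPM in spleen dDC and 0.0571, 1.64 and 0.0421 CPM in spleen control libraries. It was highest in thymus by median, at 7.36 CPM, and no difference passed the edgeR test with the low-count filter. The peritoneal and thymus difference passed with edgeR without that filter (adjusted p = 0.0479), under DESeq2 (0.000650) and under limma voom (0.0311). Because both peritoneal controls were at 0, the fitted fold changes are not given. Clec9a, the lectin that marks the same dendritic cells, did not accompany Xcr1. Thymus held 2 Clec9a counts, both in control library 1.

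Zbtb46, a transcription factor of classical dendritic cells, ranged over 8.65 to 18 CPM in peritoneal cavity, 1.64 to 19.98 CPM in thymus and 11.1 to 21.0 CPM in spleen. Siglech, a receptor of plasmacytoid dendritic cells, was read in 4 libraries, at 9.82 CPM in peritoneal control 2, 1.32 CPM in thymus dDC 2 and 1 count each in thymus dDC 1 and spleen control 1. Batf3, the factor behind cross-presenting dendritic cells, reached 2.22 CPM in peritoneal dDC 2 and 5.45 CPM in peritoneal control 2 and held at most 9 counts in any thymus or spleen library.

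Between genotypes, none of the 37 genes passed in the peritoneal cavity, thymus or spleen or on average over tissues, where 0.00543%, 0%, 0% and 0.076% of all tested genes passed (edgeR). The last share comprised 0.0489% higher and 0.0271% lower in dDC. At an unadjusted p under 0.05 there were 5, 1, 2 and 5 of the 37, beside 6.36%, 6.57%, 4.27% and 9.31% of all genes. In the peritoneal cavity 27 of the 37 fitted differences were negative with a median log2 of -1.67, against 0.00 over all genes, and 10 were positive. That direction rested on peritoneal control 2: without it the median was 2.24 and 30 were positive. That fit leaves peritoneal control 1, the low library, as the only peritoneal control. In spleen 24 were positive with a median log2 of 0.41, against -0.01 over all genes, and in thymus the median was 0.00, or -0.10 with empty groups at their bound, against -0.03 and -0.07. DESeq2 called Axl higher and Prg4 lower in the peritoneal cavity, Itgax lower in thymus and Axl higher on average, and limma voom called none. With each library left out, the spleen median stayed between 0.19 and 0.93, the lower value without spleen dDC 2 and the higher without spleen control 2.

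The libraries of the 2 genotypes did not overlap for 11 of the 37 genes in the peritoneal cavity, 6 higher and 5 lower in dDC, where 34.1% of all genes tested do not overlap (18.7% higher and 15.4% lower). The 6 higher were Axl, Ptafr, Lilra6, Xcr1, Mertk and Clec9a, and the 5 lower were Csf1r, Hmox1, Prg4, Zbtb46 and Flt3. In thymus 3 genes did not overlap, Mpeg1, Alox15 and Siglech, all higher in dDC at 3.53 CPM or less (19.4% of all genes, 9.06% higher and 10.3% lower). In spleen 3 did not, Fcer1g, Itgax and Axl, all higher in dDC (10.1% of all genes, 4.94% higher and 5.19% lower). These shares are what so few libraries give for genes at large.

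Axl had the lowest adjusted p of the set between genotypes. Its dDC libraries lay above the controls in the peritoneal cavity and in spleen and overlapped them in thymus. The log2 difference was 2.76 ± 0.48 SE in the peritoneal cavity (adjusted p = 0.139), 0.57 ± 0.40 in thymus (0.814), 0.82 ± 0.36 in spleen (1.0) and 1.38 ± 0.24 on average (unadjusted p = 9.18e-05, adjusted p = 0.0857, all edgeR). The average passed without the low-count filter (edgeR adjusted p = 0.00507) and under DESeq2 (5.71e-06). Without thymus dDC 2, which leaves thymus dDC 1 as the only thymus dDC library, the average was log2 1.53. Without peritoneal control 1 the average was log2 1.68. That fit leaves peritoneal control 2, the lowest library for Axl, as the only peritoneal control. The peritoneal difference passed without the filter (edgeR adjusted p = 0.0125) and under DESeq2 (4.65e-06). With peritoneal control 2 as the only peritoneal control, the peritoneal difference was log2 3.63. The difference between the peritoneal and the splenic dDC effects was log2 1.94 ± 0.59 SE and did not pass (edgeR adjusted p = 0.998). Ptafr was higher in dDC in the peritoneal cavity by log2 1.73 ± 0.71 SE without passing (edgeR adjusted p = 0.745). The differences of dDC effects between tissues were called for 0 members and 0 genes with edgeR, where 900 genes (4.89%, peritoneal cavity against spleen), 932 (5.06%, thymus against spleen) and 1053 (5.72%, peritoneal cavity against thymus) had an unadjusted p under 0.05, and DESeq2 called 55, 36 and 112 genes.

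Promoters are shown because several of the genes moved together by tissue and library. RefSeq start sites on GRCm38.p6 gave a window of 250 bases before and 50 after the start for 26 of the 39 genes. The letters GAGGAA, a core of many PU.1 sites, were searched on both strands. They occurred in 16 of 29 windows of these genes (55.2%) and in 28.3% of all 32851 windows of that length. The longer GAGGAAGT, which contains the shorter motif, occurred in 3 of 29 (10.3%) and in 3.20% of all windows. A match describes the letters only. The 250 bases before the start are given 5′ to 3′ on the gene's strand for Itgam (chr7:128062390-128062639, plus strand) and C1qb (chr4:136886201-136886450, minus strand), both highest in peritoneal control 2, and for Ptafr (chr4:132563817-132564066, plus strand) and Axl (chr7:25788734-25788983, minus strand), which did not follow that library. Capitals mark GAGGAA or its reverse complement TTCCTC.
Itgam: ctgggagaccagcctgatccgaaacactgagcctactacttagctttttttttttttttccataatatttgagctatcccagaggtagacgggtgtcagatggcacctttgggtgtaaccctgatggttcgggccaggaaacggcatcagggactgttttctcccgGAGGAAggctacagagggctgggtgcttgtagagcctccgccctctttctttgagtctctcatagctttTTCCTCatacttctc
C1qb: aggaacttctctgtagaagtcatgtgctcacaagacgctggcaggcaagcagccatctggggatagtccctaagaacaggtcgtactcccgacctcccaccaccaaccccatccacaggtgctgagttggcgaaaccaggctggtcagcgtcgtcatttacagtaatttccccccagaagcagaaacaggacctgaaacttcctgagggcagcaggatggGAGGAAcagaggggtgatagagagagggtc
Ptafr: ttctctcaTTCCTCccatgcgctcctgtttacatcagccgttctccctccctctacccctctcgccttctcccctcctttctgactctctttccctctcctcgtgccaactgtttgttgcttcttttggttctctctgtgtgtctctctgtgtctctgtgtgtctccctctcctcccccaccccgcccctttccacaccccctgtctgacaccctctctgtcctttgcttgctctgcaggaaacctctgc
Axl: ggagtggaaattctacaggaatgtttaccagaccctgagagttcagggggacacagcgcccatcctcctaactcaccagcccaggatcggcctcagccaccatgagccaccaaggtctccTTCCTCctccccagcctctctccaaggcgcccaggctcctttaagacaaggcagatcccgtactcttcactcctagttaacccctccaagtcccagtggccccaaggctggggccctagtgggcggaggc
Itgam held 2 matches, whose leftmost bases lay 84 and 15 bases before the start, and the others 1 each, at 30 bases in C1qb, 242 in Ptafr and 130 in Axl. Both printed pairs held the letters, which does not describe all genes highest in peritoneal control 2. Of the others highest there with a window, Cd68, C1qc, Fcgr3, Apoe and Batf3 held a match in the 250 bases. Not every Apoe window held it. Lyz2, Cd209a, Fcer1g, Mpeg1, Itgax, Timd4, Siglech and Flt3 held none.

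In all, 13 comparison lists covered other genes of the same cells and other cell types, and their calls are given for peritoneal cavity against spleen, thymus against spleen and peritoneal cavity against thymus in that order. Of 34 tested other macrophage and monocyte genes, 1 was higher (Ccr2), 5 were lower (among them Pld4, Sirpa and Tlr4) and 9 were higher, among them Pld4, Ccr2 and Sirpa. Of 11 tested other red pulp genes, 1 was lower (Actn1), 0 were called, and 1 was higher and 1 lower. Of 11 tested other peritoneal macrophage genes, 0 were called, 1 was lower (Laptm5) and 0 were called. Of 21 tested other dendritic cell genes, 3 were higher and 3 lower, 1 was lower (Ly6d), and 4 were higher and 4 lower, with Cd83 and Pacsin1 lower in peritoneal cavity both times.

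Like most of the macrophage genes, antigen presentation and B cell genes were lowest in thymus when summed. Unlike the red pulp sum, these sums had higher medians in peritoneal cavity than in spleen. All 7 MHC class II genes were higher in peritoneal cavity than in thymus, 4 were lower in thymus than in spleen, and 2 were higher in peritoneal cavity than in spleen. Their summed level was 4434 and 8742 CPM in peritoneal dDC and 4035 and 16940 CPM in peritoneal control libraries. Of 12 B cell genes, 10 were higher in peritoneal cavity than in thymus, 10 were lower in thymus than in spleen, and 1 (Cd79b) was higher in peritoneal cavity than in spleen. The summed B cell level was 1512 and 2607 CPM in peritoneal dDC, 1257 and 2394 CPM in peritoneal control, 71.8 and 89.4 CPM in thymus dDC, 52.8 to 86.2 CPM in thymus control, 483 to 874 CPM in spleen dDC and 432 to 1310 CPM in spleen control libraries. Peritoneal dDC 2 held the highest B cell sum, at 2607 CPM, and the higher peritoneal control had 2394 CPM. The part of B cells or of other cells beside the Tregs in the tissue results was not tested.

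The remaining lists were quieter. T cell and Treg genes gave 2 lower (Cd3e and Cd3g), 0, and 3 lower (Ikzf2, Il2ra and Ctla4) of 8 tested. Natural killer genes gave 1 lower (Eomes), 1 lower (Ncr1) and 1 higher (Ncr1) of 7, and mast cell, basophil and eosinophil genes gave 0, 1 higher (Kit) and 1 lower (Kit) of 2. Erythroid genes gave 2 lower (among them Alas2), 5 lower and 0 of 7 tested. Neutrophil genes (4 tested), platelet genes (3) and stromal and mesothelial genes (6) gave 0 calls each time. Neutrophil genes summed to 41.9 CPM or less in any library. Between genotypes, Actn1 was the only gene of these lists that passed, lower in dDC on average over tissues (log2 -0.93 ± 0.14 SE, edgeR adjusted p = 0.0466).

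Genes whose levels most resembled those of Lyz2, C1qa and Siglech over the 15 libraries were listed by Spearman's rho, as a description. For Lyz2 they were Plac8 (rho 0.92), Iqgap1 (0.91), the immunoglobulin segments Ighv1-55 (0.90) and Igkv1-135 (0.90), and Rps21 (0.90). For C1qa they were Cd300a (0.90), Cd68 (0.88, itself among the 39), Ptgs1 (0.87), Trav8n-2 (0.87) and Pilrb1 (0.87). For Siglech they were Fxyd2 (0.95), Gm22154 (0.94), Gm16167 (0.85), A930007I19Rik (0.82) and Gm16793 (0.81). The points share their tissues and the contrast between high and low libraries, and for Siglech 11 of the 15 values are 0.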

How the data were processed

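The authors deposited whole-number read counts per gene, with gene coordinates and length in bases, for 15 libraries. Per the labels' protocols, cDNA was made from poly(A) RNA by template switching, amplified and sheared, a method that does not mark strand. The submitters' processing notes name bcl2fastq 2.19.1, GSNAP, featureCounts 1.6.0 and mm10, without settings. Symbols were matched by Ensembl ID for 45143 of 45706 genes, and 92 spike-in features (at most 6 counts a library) were left out. Groups came from the labels, and replicate numbers follow accession order and only name a library. edgeR 4.0.16 (R 4.3.3) was run on the deposited counts with TMM factors, filterByExpr over the 6 groups (18423 genes, 99.93% of counts), 1 quasi-likelihood fit over all libraries, 9 residual degrees of freedom and Benjamini-Hochberg adjustment over all genes at 0.05. It was tested on simulated data. In all, 10 contrasts were made: dDC against control in each tissue and on average, the tissues against each other, and the differences of dDC effects. A group with 0 counts was set at 3 counts per library, and groups with 1 to 3 counts got an exact Poisson interval (95%).

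The 39 genes, their roles and 13 comparison lists (161 of 162 genes found) were chosen with earlier results of these data known. All 39 genes were described, with fold change and adjusted p for those called. From each other list up to 4 called genes with the smallest p were named, or up to 2 with the highest level. Some genes of these lists are counted but not reported by name here. Alternatives were DESeq2 size factors, no low-count filter, DESeq2 1.42.0, limma voom 3.58.1, leaving out each library, and tests on 1 tissue or on controls alone. Means and fold ratios without single libraries were added after seeing the data. Median biological variation was 0.551 over all tested genes and 1.20 over the 37 tested genes of the set, as a coefficient of variation. Promoter sequence came from RefSeq windows on GRCm38.p6.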

Additional observations from a re-analysis of the deposited data

How the results depend on the processing

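Of the 22 calls in tissue comparisons, 9 were kept without each of the 15 libraries in turn (Axl and Ptafr in peritoneal cavity against spleen and against thymus, Lilra6 and Tyrobp in both contrasts with thymus, and Cd209a in peritoneal cavity against thymus). Of 330 values with a library left out, 267 passed, 63 no longer passed and 0 changed sign, and under the other settings 85 of 110 passed. limma voom and the test on control libraries alone each lost 11 of the 22 calls, and dropping the low-count filter lost 3. The sign changed for 305 of 5190 values not called with a library left out, and for 78 of 1555 under other settings. Among values not called, 28 of 5190 passed with a library left out and 47 of 1555 under other settings.

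DESeq2 called 194 genes in dDC against control in the peritoneal cavity, 153 in thymus, 32 in spleen and 384 on average, against 1, 0, 0 and 14 with edgeR, and 1 of the 39 genes higher and 1 lower in the peritoneal cavity, 1 lower in thymus and 1 higher on average. It called 55, 112 and 36 genes for the differences of dDC effects between peritoneal cavity and spleen, peritoneal cavity and thymus, and thymus and spleen, with 1 of the 39 lower in the last. It called 1241, 2039 and 966 genes in peritoneal cavity against spleen, peritoneal cavity against thymus and thymus against spleen, against 533, 1034 and 243, with 4 higher, 19 higher and 4 lower, and 1 higher and 18 lower of the 39. Without the low-count filter there were 12 genes called in the peritoneal cavity, 3 in thymus, 39 on average and 1 for the difference between thymus and spleen, with 1 of the 39 higher in the peritoneal cavity and on average. limma voom called 5 genes in the peritoneal cavity, and of the 39 it called 5 higher in peritoneal cavity against thymus and 2 lower in thymus against spleen. It also called Axl, Ctss and Xcr1 lower in peritoneal cavity against thymus. In peritoneal cavity against spleen it called Ptafr and Flt3 higher and Axl, Slc40a1 and Spic lower. With peritoneal libraries alone 0 genes were called for dDC. Control libraries alone gave 146, 455 and 111 genes in the tissue contrasts, in the order above. Of the 39, 1 was higher and 1 lower in peritoneal cavity against spleen, and 2 were lower in thymus against spleen. In peritoneal cavity against thymus 1 was lower, and Cd209a, Flt3, Lilra6, Mpeg1, Ptafr and Tyrobp were higher. The cause of these differences was not tested.

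Leaving out each library moved the dDC gene counts over 0 to 146 in the peritoneal cavity, 0 to 52 in thymus and 5 to 110 on average, with 0 to 1 of the 39 higher in the peritoneal cavity and on average and 0 to 1 lower in the peritoneal cavity. The high values came without peritoneal control 1 (146 and 110) and without thymus dDC 2 (52). Differences of dDC effects ranged over 0 to 71 (peritoneal cavity and spleen), 0 to 72 (peritoneal cavity and thymus) and 0 to 21 genes (thymus and spleen), with 0 to 1 of the 39 lower in the contrasts with the peritoneal cavity. Peritoneal cavity against spleen ranged over 274 (without peritoneal dDC 2) to 681 genes, with 1 to 3 higher and 1 to 3 lower of the 39. Peritoneal cavity against thymus ranged over 614 (without thymus dDC 1) to 1209 genes, with 4 (without thymus dDC 1) to 15 (without peritoneal control 1) higher and 1 to 2 lower. Thymus against spleen ranged over 112 (without thymus dDC 1) to 302 genes, with 0 to 1 higher and 2 to 8 lower. No paired analysis was possible because the labels give each library its own number, share none between groups and do not say whether libraries of adjacent numbers belong together.

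Most of the 39 genes are at low counts, where libraries differ most, and groups hold 2 or 3 libraries. Genes at 0 in a group are known only to lie under about 0.126 to 0.190 CPM, the value of 3 counts in a library.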
